A study of Mus musculus with 70 samples.

Results

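The 10 genes described here are targets of the transcription factor p53 other than p21 (Cdkn1a): Mdm2, Ccng1, Bax, Bbc3, Zmat3, Trp53inp1, Phlda3, Eda2r, Pmaip1 and Sesn1. They were taken by gene symbol from 5 count tables of mouse microglia that list 25806 different genes in all. The postnatal, BLZ-titled and vehicle/UC2288 tables hold all 10, the adult Littman table holds 9 (Eda2r is not listed) and the adult Jung table holds 8 (Phlda3 and Eda2r are not listed).

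The study asked what tamoxifen does to microglia of Cx3cr1CreERT2 mice, in which a tamoxifen-dependent Cre recombinase is made from the Cx3cr1 locus, a gene active in microglia and some other myeloid cells. Each of the 70 libraries came from 500 cells sorted from brain as CD11b+ CD45+ Ly6G- CD206- and was made by CEL-Seq2, which counts the 3' ends of transcripts with molecular identifiers. Mice heterozygous for the Littman allele (Cx3cr1CreERT2(Litt)) or the Jung allele (Cx3cr1CreERT2(Jung)) were compared, after tamoxifen (TAM) in oil or after oil. Per the labels, pups were aged P8 or P14 and adults 6 to 15 weeks, but the age of a given library is not stated.

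In the postnatal table, the Littman comparison set 5 Cre+ libraries against 5 Cre- libraries from Cx3cr1 wild-type mice, all given TAM. The Jung comparison there set 4 TAM libraries against 5 oil libraries, all also heterozygous for the Rosa26YFP reporter. The vehicle/UC2288 table holds Littman mice only. Its vehicle groups are Cre- with TAM (5 libraries), Cre+ with TAM (4) and Cre+ with oil (4). Its UC2288 groups, treated at 100 mg/kg with UC2288 for functional inhibition of CDKN1A (p21), are Cre- with TAM (3) and Cre+ with TAM (5). The adult tables are Littman TAM (3) against oil (4) and Jung TAM (4) against oil (4). The BLZ-titled table holds Littman TAM (4), Littman oil (3), Jung TAM (4) and Jung oil (4), adults whose titles name BLZ945, a CSF1R inhibitor that depletes microglia. For the Jung libraries titles and treatment labels conflict: the adult-titled ones carry the BLZ945 label and the BLZ-titled ones do not, so neither Jung set can be called treated or untreated with BLZ945 here. The BLZ-titled Jung mice were also heterozygous for Rosa26YFP, and the labels of the adult-titled Jung mice and of all Littman mice name no reporter. Cre+ and Cre- mice differ in the Cre and in a Cx3cr1 copy at once, whereas TAM and oil groups share their genotype. Nothing in the labels ties replicates to separate animals, so each p-value measures the spread between these libraries, which may be technical.

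p53, made from Trp53, is stabilised by DNA breaks and other stresses and binds paired copies of a short DNA element near its target genes. Its targets slow the cell cycle (Cdkn1a, Ccng1), promote mitochondrial apoptosis (Bax, Bbc3, Pmaip1), limit p53 itself (Mdm2) or adjust survival signalling and metabolism (Phlda3, Sesn1, Trp53inp1). Cre recombinase can cut DNA at sequences that resemble its loxP site, a known source of DNA damage in Cre mice.

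The vehicle/UC2288 libraries were the shallowest, with 116083 to 277680 counts each, and the postnatal ones the deepest, with 329329 to 450461. The BLZ-titled libraries held 184513 to 236106 counts and those of the adult Jung and Littman mice 274120 to 347941. Levels are given in CPM, the count scaled to a common library total. A single count was worth 3.60 to 8.61 CPM among vehicle/UC2288 libraries, so several members rest on a few counts per library. All 8 microglia markers (such as Cx3cr1, P2ry12 and Csf1r) had counts in all 5 tables, and the neutrophil marker list was at 0 in both adult tables. Neutrophil markers were highest in 3 libraries: postnatal Cre- replicate 2 (1097 CPM), BLZ-titled Littman oil replicate 3 (2845 CPM) and BLZ-titled Littman TAM replicate 1 (2415 CPM). UC2288 Cre- replicate 1 followed, at 645.5 CPM. UC2288 Cre+ replicate 3 stood apart from its group, with 16628 CPM of summed microglia markers against 6652 to 7269 CPM in the other 4. Cdkn1a, the p53 target left out of the 10, rose in the Littman comparisons that hold TAM: 284 ± 86.7 (SD, n = 5) against 55.4 ± 9.07 CPM (n = 5) in postnatal mice, 802 ± 191 (n = 4) against 96.0 ± 31.7 CPM (n = 5) under vehicle, 724 ± 68.2 (n = 4) against 108 ± 34.6 CPM (n = 3) in the BLZ-titled set and 198 ± 24.0 (n = 3) against 64.4 ± 18.6 CPM (n = 4) in adults (edgeR adjusted p of 0.00905 or below). In postnatal Jung mice Cdkn1a was at 114 ± 26.2 (n = 4) after TAM against 61.3 ± 11.9 CPM (n = 5) after oil, without overlap (log2 fold change 0.90, 95% interval 0.46 to 1.34), at an edgeR adjusted p of 0.173 that became 0.00187 with no low-count filter.

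RefSeq windows of 300 bases around the transcription start (build GRCm38.p6) were taken for 7 of the 10 members. They are shown because the members are grouped by a transcription factor, and the capitals mark in each the closest match to a pair of p53 consensus half-sites, letters 10 long each, with a spacer of 0 to 13 bases. The motif is self-complementary, so a search on either strand finds the same matches. The first lines give the 250 bases before the start, 5′ to 3′ on the strand of the gene, for Ccng1 (chr11:40755287-40755536, minus strand), Bax (chr7:45466899-45467148, minus strand) and the first of 3 Bbc3 windows (chr7:16309333-16309582, plus strand).
Ccng1: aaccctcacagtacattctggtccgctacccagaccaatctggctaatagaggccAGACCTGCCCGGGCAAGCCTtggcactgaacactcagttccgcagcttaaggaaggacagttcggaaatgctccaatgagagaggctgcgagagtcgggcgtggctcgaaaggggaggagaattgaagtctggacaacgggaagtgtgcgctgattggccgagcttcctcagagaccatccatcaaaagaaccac
Bax: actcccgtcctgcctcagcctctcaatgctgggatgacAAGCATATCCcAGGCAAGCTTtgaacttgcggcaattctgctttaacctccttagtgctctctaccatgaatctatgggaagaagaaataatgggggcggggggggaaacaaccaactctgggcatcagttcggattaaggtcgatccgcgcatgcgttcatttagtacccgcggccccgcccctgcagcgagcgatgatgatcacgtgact
Bbc3: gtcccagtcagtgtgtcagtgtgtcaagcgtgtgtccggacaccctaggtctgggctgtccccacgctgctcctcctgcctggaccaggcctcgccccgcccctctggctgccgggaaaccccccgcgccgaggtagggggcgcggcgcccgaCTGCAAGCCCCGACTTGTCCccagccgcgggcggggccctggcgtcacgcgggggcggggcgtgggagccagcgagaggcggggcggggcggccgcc
The next lines give the match alone for Mdm2 (chr10:117710923-117710944, minus strand), the second Sesn1 window (chr10:41887253-41887275, plus strand) and, for comparison, Cdkn1a (chr17:29090906-29090937, plus strand), with the spacer in lower case.
Mdm2: GAACTTGCCTagCGACCATTGC
Sesn1: GCGCTTGGCCttcAAGCTTGTTT
Cdkn1a: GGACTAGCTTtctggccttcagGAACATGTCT

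Against the consensus, the Cdkn1a match had 0 mismatches over 20 letters, Ccng1 and Bax had 1 each, Sesn1 had 2, Bbc3 had 3, and Mdm2, Phlda3 and Eda2r had 4. For genes with several windows these are the closest, and the other windows had 5 (Cdkn1a), 5 (Sesn1), and 3 and 6 (Bbc3). Among all 32841 RefSeq windows, 0.0731% held a match with 0 mismatches, 1.09% with at most 1, 10.1% with at most 2, 45.1% with at most 3 and 89.3% with at most 4. The matches of Ccng1 and Bax were thus of a grade found in few windows, and those of Mdm2, Phlda3, Eda2r and Bbc3 were not. In Mdm2 the first of the pair is an exact half-site, which 8.36% of windows contain. In GENCODE vM21 the matches of Ccng1, Bax, Mdm2 and Cdkn1a lie upstream of the gene, and those of Sesn1 and Bbc3 lie in an intron. A match is a description of letters, and elements outside these windows were not searched.

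Among TAM-treated Littman pups given vehicle, 5 of 10 members had counts high enough to be tested, and all 5 changed between Cre+ and Cre- libraries (edgeR quasi-likelihood test, Benjamini-Hochberg adjusted p below 0.05): Zmat3, Ccng1, Bax and Mdm2 rose and Sesn1 fell. Of all 4953 genes tested, 27.2% were called in this comparison, 14.3% higher and 12.9% lower. The median log2 fold change of the 5 was 0.95, against -0.007 over all genes tested. Zmat3 and Mdm2 passed the low-count filter only through Cre+ TAM libraries, given vehicle or UC2288, in which they were high. The count and the median of tested members are therefore descriptions and support nothing about the 10 as a whole. Scaling by column totals instead of TMM moved the all-gene median to 0.21 and the share of called genes that were higher from 52.7% to 72.3%, so fold changes here are relative to a TMM scale. The summed level of all 10 members was 486 to 573 CPM in Cre+ TAM, 222 to 255 CPM in Cre- TAM and 204 to 261 CPM in Cre+ oil, with Cre+ TAM clear of both.

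**Figure D1:**
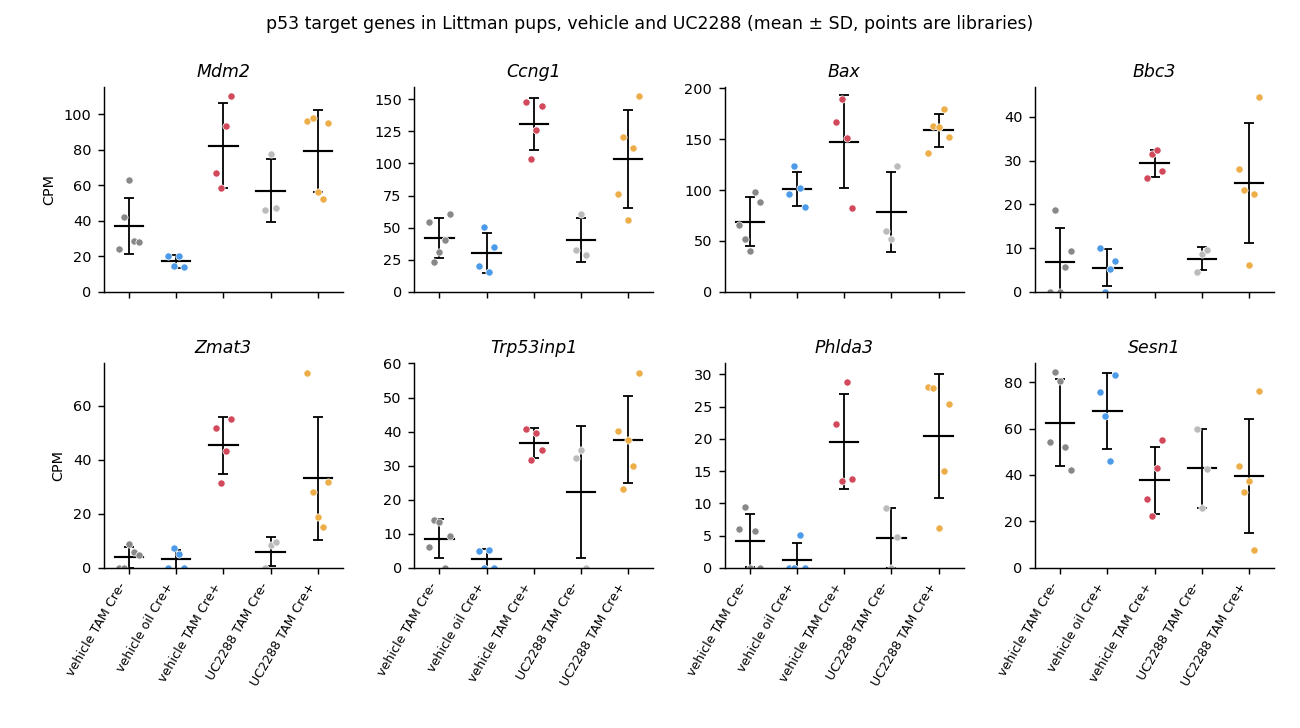
Level of 8 members in each library of the vehicle/UC2288 table (y axis, CPM from column totals; points are libraries, bars are mean ± SD, cut at 0). All 4 vehicle Cre+ TAM libraries lie above all vehicle Cre- TAM and vehicle Cre+ oil libraries in Ccng1, Bbc3, Zmat3, Trp53inp1 and Phlda3.

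Of the members that act on the cell cycle and on p53 itself, Ccng1 encodes cyclin G1, which recruits a phosphatase to the p53 inhibitor MDM2. Ccng1 stood at 148, 104, 126 and 145 CPM in the Cre+ TAM libraries and at 54.0, 23.4, 31.4, 40.4 and 60.6 CPM in the Cre- TAM libraries. The groups did not overlap, and Ccng1 rose 2.72-fold (log2 fold change 1.44 ± 0.312 SE, adjusted p = 0.000698). Mdm2 encodes the ubiquitin ligase that marks p53 for degradation. Mdm2 was at 66.7, 58.5, 93.6 and 110 CPM in Cre+ TAM and at 24.0, 42.1, 62.7, 28.8 and 28.0 CPM in Cre- TAM. Cre- replicate 3 reached into the Cre+ range, and the rise of 1.85-fold (0.89 ± 0.322, adjusted p = 0.036) was not called when Cre- replicate 1, 4 or 5 or Cre+ replicate 3 or 4 was left out (adjusted p from 0.0827 to 0.114). It was also lost with no low-count filter (adjusted p = 0.152), with DESeq2 (0.0826) and with a replicate block (0.0553).

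Among the apoptotic and RNA-binding members, Zmat3, a zinc finger protein that binds RNA, showed the widest separation. Zmat3 had 51.8, 31.5, 43.2 and 55.2 CPM in Cre+ TAM and 0, 0, 8.96, 5.77 and 4.66 CPM in Cre- TAM, from 41 and 4 counts. It rose 8.66-fold (3.11 ± 0.728, adjusted p = 0.000957) without overlap, and with no low-count filter its adjusted p was 0.000123. Bax, a pore-forming protein of the outer mitochondrial membrane, was at 167, 189, 151 and 82.7 CPM in Cre+ TAM and at 66.0, 51.5, 40.3, 98.1 and 88.6 CPM in Cre- TAM. Cre+ replicate 4 lay within the Cre- range, and Bax rose 1.93-fold (0.95 ± 0.279, adjusted p = 0.0103). Ccng1 and Bax kept their call in all 9 fits that left out a library, and Zmat3 in the 7 in which it could be tested. Without Cre+ replicate 1 or 4 Zmat3 did not pass the filter.

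Sesn1, a stress-induced inhibitor of growth signalling through mTORC1, went the other way. Sesn1 was at 29.6, 22.5, 43.2 and 55.2 CPM in Cre+ TAM and at 54.0, 84.2, 80.6, 51.9 and 42.0 CPM in Cre- TAM, with overlapping ranges. It fell by 0.97 on the log2 scale (SE 0.375, adjusted p = 0.0465). The call was lost without Cre- replicate 1, 2 or 3 or Cre+ replicate 1, 2 or 3 (adjusted p from 0.051 to 0.135), and under 6 of 8 other settings.

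The other 5 members were below the low-count filter, and 3 of them did not overlap between the groups. Bbc3 encodes PUMA, a BH3-only activator of BAX. Bbc3 had 25.9, 31.5, 32.4 and 27.6 CPM in Cre+ TAM and 0, 18.7, 0, 5.77 and 9.32 CPM in Cre- TAM, or 27 against 7 counts, a pooled ratio of 4.18 (exact 95% interval 1.78 to 11.4, counting error only). Pooled ratios are scaled by column totals and not by TMM, and with column totals the all-gene median log2 fold change was 0.21 here. Trp53inp1, a nuclear and autophagy-linked protein that promotes p53 activity, had 40.7, 31.5, 39.6 and 34.5 CPM in Cre+ TAM and 6.00, 14.0, 13.4, 0 and 9.32 CPM in Cre- TAM, or 34 against 9 counts (ratio 4.09, interval 1.92 to 9.70). Phlda3, a repressor of AKT signalling, had 19 against 4 counts (19.6 ± 7.36 against 4.23 ± 4.11 CPM, ratio 5.15, interval 1.71 to 20.8). In all, 5 of 10 members were higher without overlap (Ccng1, Bbc3, Zmat3, Trp53inp1 and Phlda3), against 6.45% of the 20544 genes with counts. When the filter was dropped, Trp53inp1 passed (adjusted p = 0.0379) and Bbc3 (0.0832) and Phlda3 (0.132) did not, with 6.39% of genes called. Pmaip1, which encodes the BH3-only protein NOXA, had 10 against 9 counts, and Eda2r, a receptor of the tumour necrosis factor family, had 1 against 0.

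The marker lists moved with the same groups. Summed microglia markers were 6619 to 7132 CPM in vehicle Cre+ TAM and 13772 to 15575 CPM in Cre- TAM, and 6 of the 8 markers fell, among them P2ry12 by 2.09 and Cx3cr1 by 1.53 on the log2 scale. Monocyte markers were 96.5 to 278 CPM against 4.48 to 28.1 CPM, and Plac8, the 1 of those 4 markers that could be tested, rose by 4.27 on the log2 scale. Slc1a3, an astrocyte marker, rose by 1.27. Border macrophage markers were 82.7 to 187 CPM against 267 to 462 CPM, with Lyve1 at 0. The mitochondrial share of counts was 7.76% to 9.59% against 11.1% to 15.9%. The part of these differences in the members' values was not tested, and in bulk libraries a change in the share of a cell type and a change in RNA per cell cannot be told apart.

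Within Cre+ pups given vehicle, TAM against oil gave 3 calls among the 5 tested members (31.4% of genes called, 16.1% higher). The Cre+ TAM libraries are those of the previous comparison, so the 2 comparisons are not independent. Mdm2 was at 20.2, 14.496, 20.4 and 13.9 CPM in Cre+ oil, below every Cre+ TAM library, and rose 4.07-fold with TAM (2.02 ± 0.415, adjusted p = 0.000281). Ccng1 was at 20.2, 50.7, 15.3 and 34.6 CPM in Cre+ oil, also below every Cre+ TAM library, and rose 4.12-fold (2.04 ± 0.373, adjusted p = 7.75e-05). Zmat3 had 2 counts over the 4 oil libraries against 41, a pooled ratio of 15.1 (exact interval 3.93 to 129). In the edgeR fit it rose by 3.54 on the log2 scale (adjusted p = 0.00128). All 3 calls were kept wherever the gene could be tested, and Zmat3 had an adjusted p of 0.000232 with no low-count filter.

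Bax was at 96.1, 123, 102 and 83.2 CPM in Cre+ oil, with a mean between those of the other vehicle groups, and its 0.45 ± 0.288 did not pass (adjusted p = 0.24). Sesn1 was at 75.9, 65.2, 45.9 and 83.2 CPM in Cre+ oil, and its -0.99 ± 0.401 missed the threshold (adjusted p = 0.0517). It passed without Cre+ TAM replicate 4 (adjusted p = 0.0345) or Cre+ oil replicate 3 (0.0403), with limma-voom (0.0305) and with the 2 groups fitted alone (0.0286). Of the members below the filter, Trp53inp1 had 34 against 2 counts (ratio 12.6, interval 3.22 to 108), Phlda3 19 against 1 (ratio 14.0, interval 2.23 to 583) and Bbc3 27 against 4 (ratio 4.99, interval 1.74 to 19.6), each without overlap. Altogether 6 of 10 members were higher without overlap, against 7.35% of genes with counts. Without the filter Trp53inp1 (adjusted p = 0.00119) and Phlda3 (0.0317) passed, with 7.39% of genes called. The median of the 5 tested members was 2.02 against 0.003 over all genes. Zmat3 and Mdm2 passed the low-count filter only through Cre+ TAM libraries, so the count and median of tested members are descriptions here too. Column totals moved the all-gene median to 0.16 and the share of called genes that were higher from 51.3% to 63.7%. Summed microglia markers were 14978 to 18571 CPM in Cre+ oil, and Plac8 rose by 5.11 on the log2 scale with TAM. Mrc1 fell by 1.5 and Slc1a3 rose by 1.63, and the part of these markers in the values was not tested.

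Between the vehicle groups that lack either TAM or Cre, no tested member was called. Cre+ oil against Cre- TAM gave 0 calls among the 5 tested members (edgeR, 0% of genes called, 290 genes at unadjusted p below 0.05, 1 of them a member). That member was Mdm2, at 17.2 ± 3.55 (n = 4) against 37.1 ± 15.8 CPM (n = 5). All 4 oil libraries lay below all 5 Cre- TAM libraries, but the difference of -1.14 ± 0.451 did not pass (adjusted p = 0.797).

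Genes around the members gave the following counts under vehicle, to be read against the 14.3% of all tested genes that were higher. Pml passed the low-count filter only through Cre+ TAM libraries, given vehicle or UC2288, and the other listed genes were not examined for this. The counts from these lists, here and in the comparisons below, are therefore descriptions. Of 40 other p53 targets, 13 could be tested, and 3 rose in Cre+ TAM against Cre- TAM: Cdkn1a (2.86 ± 0.272), Pml (1.93 ± 0.42, the scaffold of nuclear bodies) and Apaf1 (1.77 ± 0.407, the apoptosome core). Of 16 genes for p53 and its regulators, 10 could be tested and 5 rose, led by Hipk2 (1.69 ± 0.562, a kinase that phosphorylates p53) and Mdm4 (1.32 ± 0.274, the partner of MDM2, 232 ± 16.5 against 82.0 ± 21.9 CPM). The others were Atr (1.30), Usp7 (1.09) and Ep300 (0.86). Trp53 itself was at 105 ± 11.8 against 92.8 ± 23.8 CPM (0.01 ± 0.278, adjusted p = 0.982). Of 18 genes of the BCL2 family and mitochondrial apoptosis, 11 could be tested and 2 rose, Bcl2a1a (1.51 ± 0.501, which has near-identical copies that may share reads) and Xiap (0.79 ± 0.240), both of which restrain cell death.

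With TAM against oil in Cre+ pups, where 16.1% of all tested genes were higher, 4 of the 13 other targets rose (Cdkn1a, Polk, Pml and Apaf1) and Ckap2 fell by 1.80. Of the 10 regulators, 6 rose (Hipk2, Cop1, Mdm4, Ep300, Usp7 and Crebbp). Of the 11 apoptosis genes, Xiap (0.88) and Mcl1 (0.72), both survival factors, rose. Trp53 was not called (-0.02 ± 0.298, adjusted p = 0.966).

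UC2288 did not move any tested member past the threshold. In Cre+ TAM pups, UC2288 against vehicle gave 0 calls among 5 (edgeR, 0.727% of genes called), and 0 members at unadjusted p below 0.05. The fitted differences and their 95% intervals on the log2 scale were 0.08 (-0.49 to 0.65) for Mdm2, -0.27 (-0.81 to 0.28) for Ccng1, 0.15 (-0.35 to 0.65) for Bax, -0.29 (-1.26 to 0.69) for Zmat3 and 0.21 (-0.59 to 1.01) for Sesn1. Without the UC2288 Cre+ replicate 3 that stood apart they ran from -0.15 (Zmat3) to 0.22 (Sesn1). In Cre- TAM pups 0 of 5 members were called (0.0202% of genes, 0 members at unadjusted p below 0.05), with Sesn1 at -0.59 (-1.40 to 0.21) and Mdm2 at 0.39 (-0.36 to 1.15).

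Between Cre+ and Cre- pups that both received UC2288 and TAM, only Ccng1 of the 5 tested members was called (4% of genes called). Ccng1 was at 76.0, 121, 56.2, 112 and 152 CPM in Cre+ and at 32.3, 60.3 and 28.4 CPM in Cre-. Cre- replicate 2 lay above Cre+ replicate 3, and Ccng1 rose 2.71-fold (1.44 ± 0.389, adjusted p = 0.0207). The call was lost without Cre- replicate 1 or 3 or Cre+ replicate 2 or 5 (adjusted p from 0.0676 to 0.167). Of these, Cre- replicate 1 is the library with neutrophil markers. Bax was at 136, 163, 162, 180 and 152 CPM in Cre+ and at 59.9, 51.7 and 123 CPM in Cre-. The groups did not overlap, yet its 0.94 ± 0.315 did not pass (adjusted p = 0.0965), except without Cre- replicate 3 (1.54, adjusted p = 0.00768).

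Zmat3 had 34 counts in UC2288 Cre+ and 3 in Cre-, a pooled ratio of 6.73 (interval 2.12 to 34.2) without overlap. In the edgeR fit it did not pass (adjusted p = 0.0787). It passed without Cre+ replicate 3 (2.64, adjusted p = 0.042), where Ccng1 was at 1.57 (adjusted p = 0.00636). Mdm2 (0.58 ± 0.353) and Sesn1 (-0.18 ± 0.442) did not pass. Markers moved here too: Plac8 rose by 5.33 and Cx3cr1 fell by 1.55 on the log2 scale, and their part in these values was not tested. Bbc3 had 23 against 4 counts, Phlda3 20 against 3, Trp53inp1 34 against 11 and Pmaip1 12 against 1. The Cre difference under UC2288 minus that under vehicle was called for 0 of 5 members (edgeR, 1.94% of genes called, 0 members at unadjusted p below 0.05). It was -0.01 for Ccng1 (95% interval -1.02 to 1.01), -0.01 for Bax (-0.84 to 0.82) and -0.31 for Mdm2 (-1.26 to 0.64). Among the p53 regulators Hipk2 (-2.90 ± 0.804) and Usp7 (-2.13 ± 0.436) were called in that contrast, where column totals moved the all-gene median to -0.20 and the share of called genes above 0 from 49% to 17.9%. Of the 13 other targets Cdkn1a (2.68) and Pml (1.88) rose in Cre+ under UC2288, 0 of the 10 regulators did, and Bcl2a1a and Bcl2a1d rose among the 11 apoptosis genes.

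**Figure D2:**
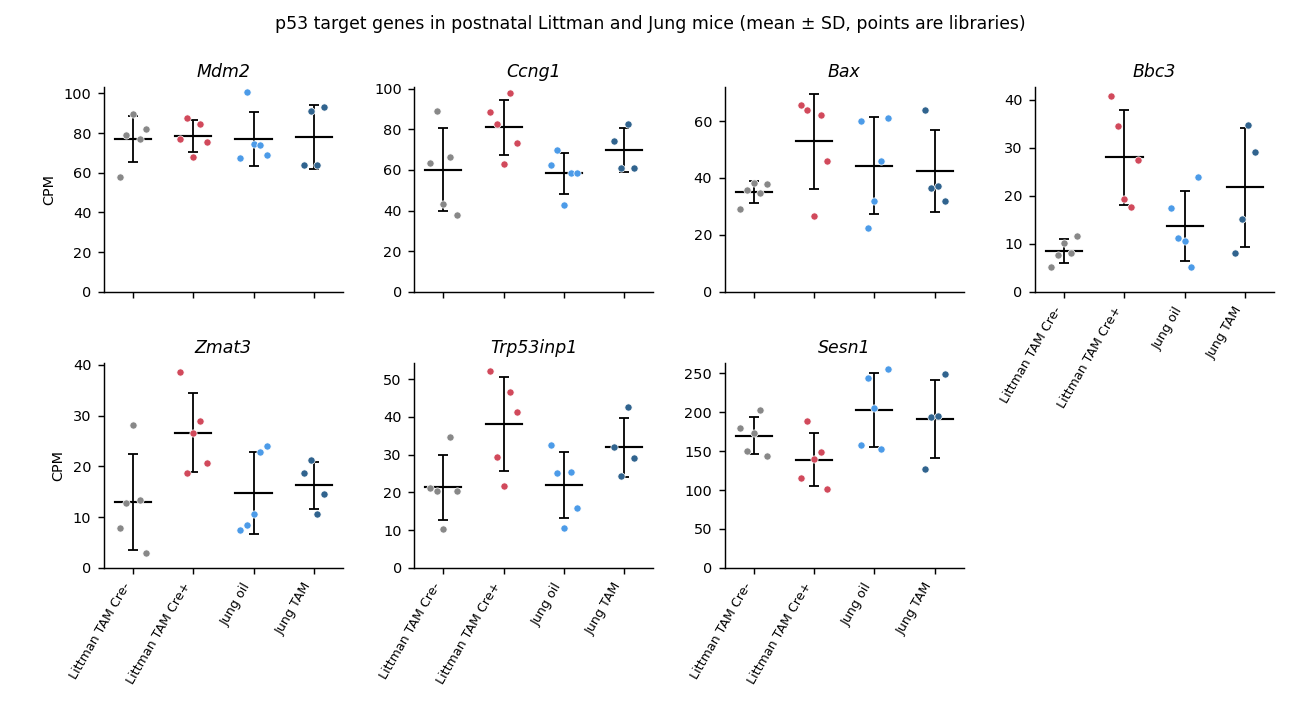
Level of the 7 tested members in each postnatal library (y axis, CPM from column totals; points are libraries, bars are mean ± SD). Bbc3 is the member whose 5 Littman Cre+ libraries (17.8 to 40.8 CPM) all lie above the 5 Cre- libraries (5.27 to 11.7 CPM).

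In the postnatal table without vehicle, 1 of 7 tested members changed between TAM-treated Littman Cre+ and Cre- pups: the pro-apoptotic Bbc3 rose. Of 7076 genes 7.8% were called, 4.56% higher. Bbc3 was at 40.8, 34.6, 19.3, 17.8 and 27.5 CPM in Cre+ and at 5.27, 7.64, 10.2, 7.99 and 11.7 CPM in Cre-. The groups did not overlap, and Bbc3 rose 3.29-fold (1.72 ± 0.423, adjusted p = 0.00382), a call kept in all 10 fits that left out a library and with no low-count filter (adjusted p = 0.00192).

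The next members in size missed the threshold. Zmat3 was at 26.6 ± 7.85 against 13.0 ± 9.44 CPM (1.05 ± 0.389, adjusted p = 0.0878, n = 5 each, edgeR). Trp53inp1 was at 52.1, 29.3, 21.8, 46.6 and 41.3 CPM in Cre+ and at 21.1, 20.4, 10.2, 34.6 and 20.5 CPM in Cre- (0.89 ± 0.304, adjusted p = 0.056). The ranges of both overlapped, and Trp53inp1 passed without Cre- replicate 4, Cre+ replicate 2 or Cre+ replicate 3 (adjusted p from 0.0214 to 0.0363). Bax (0.63 ± 0.257, adjusted p = 0.135) passed without Cre+ replicate 3 (0.80, adjusted p = 0.0363), and Ccng1 (0.46 ± 0.193, adjusted p = 0.147) without Cre- replicate 2 (0.66, adjusted p = 0.0345), the library with neutrophil markers. Mdm2 stood at 78.5 ± 7.86 against 77.1 ± 11.7 CPM (0.07, 95% interval -0.26 to 0.40), and Sesn1 at 139 ± 33.9 against 170 ± 23.7 CPM (-0.26 ± 0.160, adjusted p = 0.402).

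Of the 7 tested members 6 were above 0, with a median of 0.63 against -0.001 over all genes. Bbc3 passed the low-count filter only through Cre+ and Jung TAM libraries, and Zmat3 would not have passed it without Cre+ libraries. That count and median are therefore descriptions. With column totals 46.8% of called genes were higher, against 58.5% with TMM. Pmaip1 had 23 against 11 counts, Eda2r 3 against 0 and Phlda3 2 against 0. Among 18 tested other p53 targets Cdkn1a (2.40 ± 0.182) and Ak1 (1.08 ± 0.242, adenylate kinase) rose and Ddit4 fell by 1.26. Trp53 (-0.15, adjusted p = 0.694) and the other 12 tested regulators were not called, and of 14 apoptosis genes Bcl2a1a (1.26) rose and its near copy Bcl2a1b fell by 0.45. Summed microglia markers were 15447 to 20576 CPM in Cre+ and 23472 to 26887 CPM in Cre-, with 5 of 8 lower, and Plac8 rose by 2.30 on the log2 scale. The border macrophage marker Mrc1 rose by 0.60, the endothelial marker Pecam1 fell by 1.61 and the astrocyte marker Slc1a3 fell by 0.48. The mitochondrial share of counts was 5.12% to 6.69% in Cre+ and 3.76% to 5.02% in Cre-. The part of these differences in the values was not tested.

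TAM against oil in postnatal Jung pups gave 0 calls among 7 members (edgeR, 0.0848% of genes called), and 0 at unadjusted p below 0.05. Bbc3 was at 7.98, 15.2, 34.7 and 29.05 CPM after TAM and at 17.5, 11.2, 10.6, 5.09 and 23.9 CPM after oil, with overlapping ranges (0.66 ± 0.435, adjusted p = 0.929). Trp53inp1 was at 32.0 ± 7.78 against 22.0 ± 8.64 CPM (0.54 ± 0.341), and the others lay between -0.08 (Sesn1) and 0.26 (Ccng1). The Littman minus Jung difference was called for 0 of 7 members (0.353% of genes called, 0 members at unadjusted p below 0.05). Column totals moved the share of called genes above 0 from 72% to 56.7%. The difference was 1.06 for Bbc3 (95% interval -0.16 to 2.28, adjusted p = 0.615), 0.91 for Zmat3 (-0.28 to 2.10) and 0.69 for Bax (-0.05 to 1.44). That difference compares Cre+ with Cre- in Littman mice and TAM with oil in Jung mice. Cdkn1a passed it (1.49 ± 0.301, adjusted p = 0.00552).

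**Figure D3:**
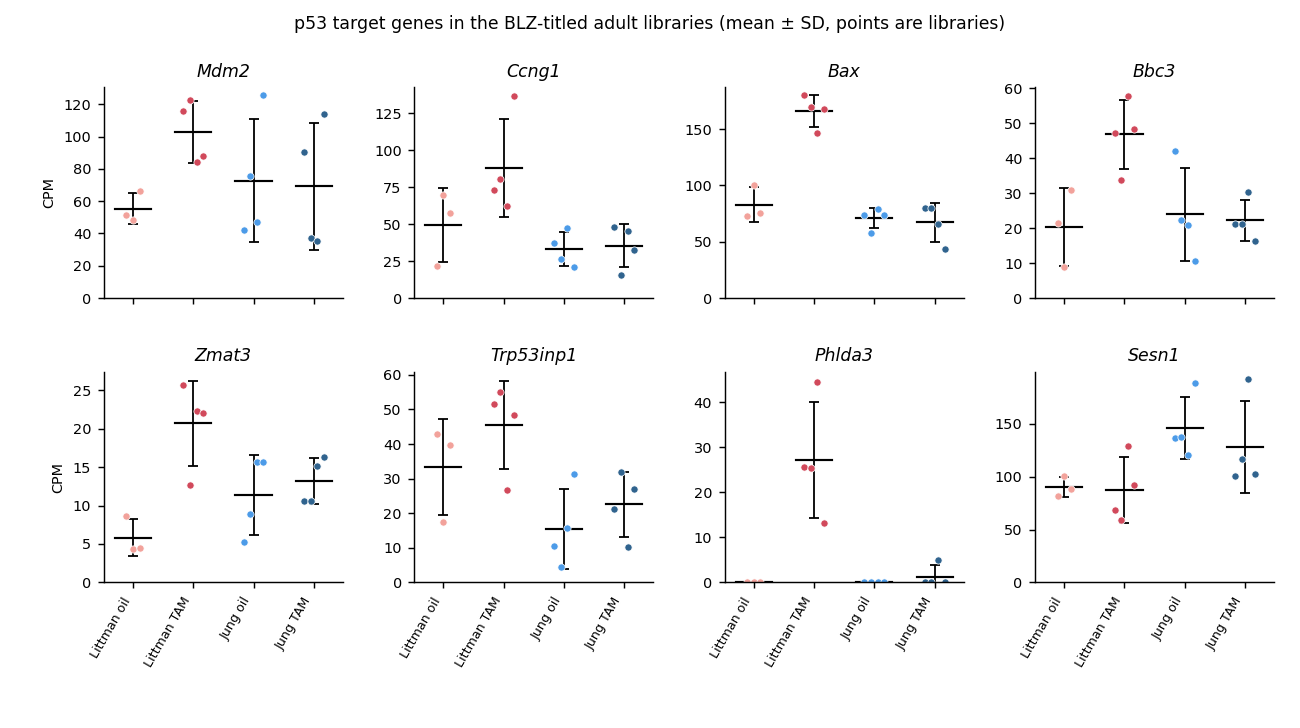
Level of 8 members in each BLZ-titled adult library (y axis, CPM from column totals; points are libraries, bars are mean ± SD, cut at 0). The 4 Littman TAM libraries lie above the 3 Littman oil libraries in Mdm2, Bax, Bbc3, Zmat3 and Phlda3, and Jung TAM and oil overlap in all 8.

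In BLZ-titled Littman adults, 5 of 10 members were higher after TAM than after oil without overlap (Mdm2, Bax, Bbc3, Zmat3 and Phlda3), against 2.94% of the 18397 genes with counts. None of the 6 tested members passed (edgeR, 0.0581% of genes called, the 3 called genes including Cdkn1a), with 4 members at unadjusted p below 0.05. Bax was at 180, 169, 147 and 167 CPM after TAM and at 73.0, 101 and 75.2 CPM after oil (0.96 ± 0.248, unadjusted p = 0.000522, edgeR adjusted p = 0.174). Mdm2 was at 116, 123, 84.6 and 88.1 CPM after TAM and at 51.5, 48.1 and 66.4 CPM after oil (0.85 ± 0.357, adjusted p = 0.657). Bbc3 was at 47.2, 33.9, 57.9 and 48.5 CPM after TAM and at 21.5, 8.74 and 31.0 CPM after oil (1.13 ± 0.484, adjusted p = 0.657). In each the lowest TAM library lay above the highest oil library.

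Phlda3 had 6, 6, 10 and 3 counts in the TAM libraries and 0 in all 3 oil libraries, at least 6.22-fold higher with 3 counts assumed over the oil group. Without the low-count filter Phlda3 passed (adjusted p = 0.0131), where 0.239% of genes were called. Zmat3 had 19 against 4 counts (ratio 3.55, interval 1.18 to 14.3). Ccng1 (0.79 ± 0.375, adjusted p = 0.698), Trp53inp1 (0.40 ± 0.457) and Sesn1 (-0.09 ± 0.298) overlapped. The median of the 6 tested members was 0.82 against 0.002 over all genes. Bbc3 and Trp53inp1 passed the low-count filter only through Littman TAM libraries, so that median is a description. The summed level of the 10 was 572 to 626 CPM after TAM and 313 to 385 CPM after oil. By Xist, 3 of the 4 TAM libraries and 0 of the 3 oil libraries were female, so no comparison within females was possible. With sex as a covariate Bax was at 1.13 ± 0.306, Bbc3 at 1.45 ± 0.589 and Mdm2 at 0.42 ± 0.403, and 0 members were called. Summed microglia markers were 8460 to 15300 CPM after TAM and 15093 to 16078 CPM after oil, and their part was not tested. Among 11 tested other targets only Cdkn1a rose (2.70 ± 0.271), and 0 of 9 regulators and 0 of 10 apoptosis genes were called.

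In the BLZ-titled Jung libraries 0 of 6 members were called after TAM (edgeR, 0% of genes called, 0 members at unadjusted p below 0.05). Bax was at 67.2 ± 17.2 against 70.9 ± 9.04 CPM (n = 4 each), Mdm2 at 69.2 ± 39.2 against 72.7 ± 38.3 CPM and Bbc3 at 22.3 ± 5.90 against 24.0 ± 13.3 CPM. Phlda3 had 1 count after TAM and 0 after oil. The Littman minus Jung difference was called for 0 of 6 (edgeR, 0% of genes called, 1 member at unadjusted p below 0.05). That member was Bax, at 0.99 (95% interval 0.25 to 1.72, unadjusted p = 0.0127, edgeR adjusted p = 0.563). Littman oil against Jung oil gave 0 of 6 (edgeR, 9.12% of genes called, 1 member at unadjusted p below 0.05). Column totals moved the all-gene median there from -0.05 to -0.30 and the share of called genes that were higher from 73.7% to 37%. Trp53inp1 was at 33.4 ± 13.9 (n = 3) against 15.5 ± 11.6 CPM (n = 4) in that comparison (1.34 ± 0.571, edgeR adjusted p = 0.14). Sesn1 was lower without overlap, at 81.5, 101 and 88.5 CPM against 137, 138, 121 and 189 CPM (-0.46 ± 0.285, adjusted p = 0.372). Of 11 tested other p53 targets, 2 were called higher in Littman oil and 1 lower. Cdkn1a was at 108 ± 34.6 (n = 3) against 35.3 ± 18.5 CPM (n = 4), without overlap (1.79 ± 0.366, edgeR adjusted p = 0.00113). Pml was also higher (1.498 ± 0.431), and Btg2 was lower (-1.02 ± 0.279). Line, reporter and, by the labels, BLZ945 differ together between these oil groups and cannot be told apart.

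In the adult tables no member was called. Littman TAM against oil gave 0 of 5 (edgeR, 0.0181% of genes called, the 1 gene being Cdkn1a), and 0 members at unadjusted p below 0.05. Bax was at 59.1, 55.4 and 71.9 CPM after TAM and at 54.5, 36.8, 24.3 and 67.8 CPM after oil (0.48, 95% interval -0.21 to 1.16). Mdm2 was at 64.8 ± 30.6 against 85.3 ± 27.4 CPM (-0.36, interval -0.99 to 0.27), Ccng1 at -0.25 (-1.01 to 0.52), Trp53inp1 at 0.43 (-0.42 to 1.29) and Sesn1 at 0.06 (-0.41 to 0.52). All ranges overlapped, with Bbc3 at 5 against 12 counts and Zmat3 at 13 against 16. In adult-titled Jung mice 0 of 4 were called (edgeR, 0% of genes called, 1 member at unadjusted p below 0.05). That member was Mdm2, at 69.9, 48.5, 42.7 and 63.3 CPM after TAM and at 73.1, 88.9, 78.7 and 91.2 CPM after oil. All 4 TAM libraries lay below all 4 oil libraries (-0.53 ± 0.257, unadjusted p = 0.0486, edgeR adjusted p of 1). Bax (0.32), Ccng1 (-0.02) and Sesn1 (-0.32) overlapped.

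**Figure D4:**
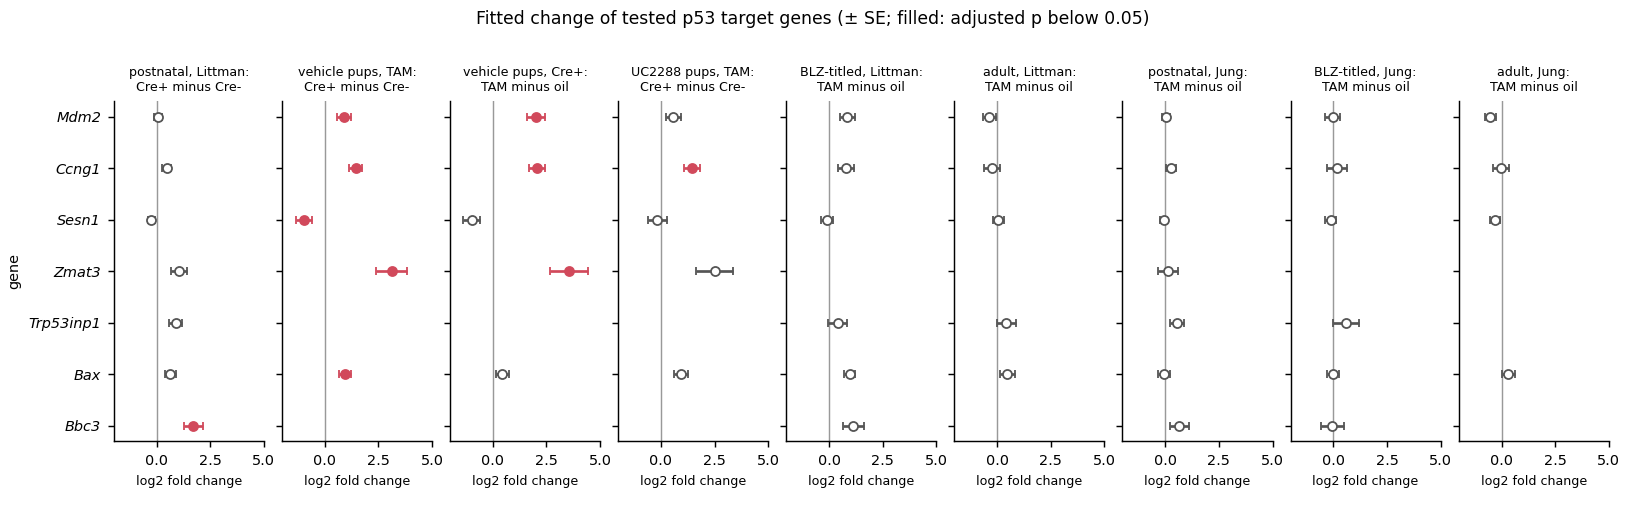
Fitted log2 fold change (x axis, ± SE) of each tested member (y axis) in 9 comparisons, with filled points where the edgeR adjusted p was below 0.05. Filled points stand in the vehicle comparisons, in Ccng1 under UC2288 and in Bbc3 in postnatal Littman mice, and in none of the Jung, BLZ-titled or adult panels.

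Set side by side over the 17 groups, the group mean of Mdm2 ran from 17.2 CPM (vehicle Cre+ oil) to 103 CPM (BLZ-titled Littman TAM), and that of Bax from 35.1 CPM (postnatal Cre-) to 166 CPM (BLZ-titled Littman TAM). Ccng1 ran from 30.2 CPM (vehicle Cre+ oil) to 131 CPM (vehicle Cre+ TAM), and Zmat3 from 3.09 to 45.4 CPM in the same pair of groups. Bbc3 ran from 5.18 CPM (adult Littman TAM) to 46.9 CPM (BLZ-titled Littman TAM). The highest group of these 5 members was a Littman group that carried Cre and received TAM. Sesn1 ran the other way, from 37.6 CPM (vehicle Cre+ TAM) to 203 CPM (postnatal Jung oil). Pmaip1 (2.87 to 13.1 CPM) and Eda2r (0 to 2.87 CPM) stayed low in every group. The tables were fitted separately, so a comparison of levels between them carries no test.

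**Figure D5:**
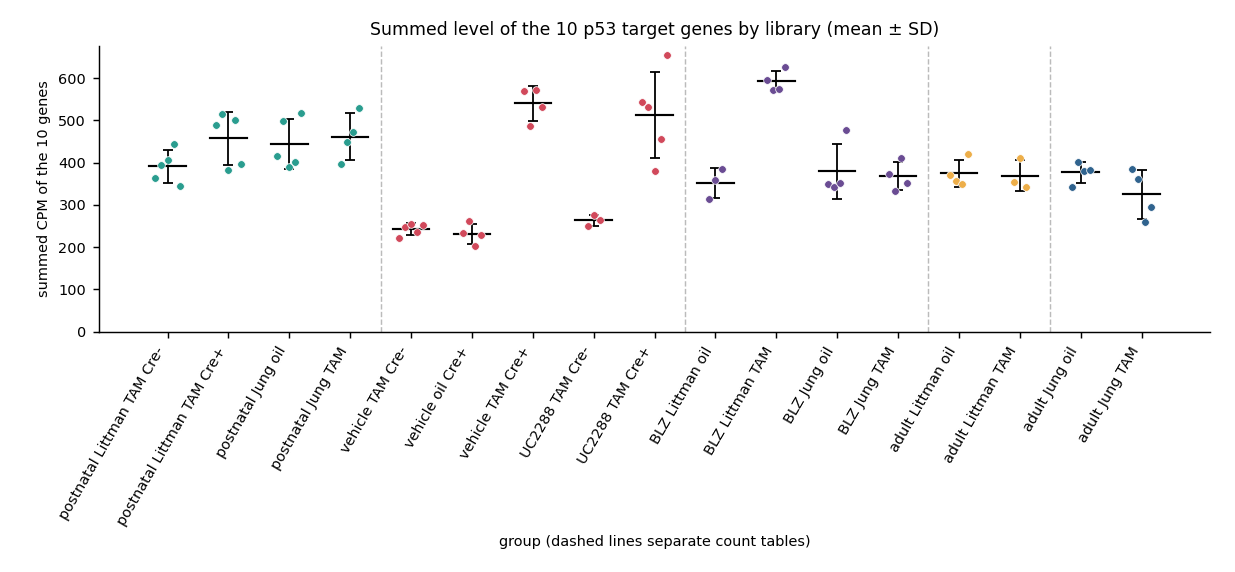
Summed level of the 10 members in each library (y axis, CPM from column totals), by group (x axis, dashed lines between count tables), with mean ± SD. Libraries of vehicle Cre+ TAM (486 to 573 CPM) and BLZ-titled Littman TAM (572 to 626 CPM) lie above every control library of their own tables. So do those of UC2288 Cre+ TAM (381 to 654 CPM). Postnatal Cre+ (382 to 516 CPM) overlaps Cre- (345 to 445 CPM).

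The 4 members Mdm2, Ccng1, Bax and Sesn1 had at least 20 CPM in the mean of every table. Over the 70 libraries, after each gene was centred within its table, the genes whose log2 CPM followed each most closely among 3884 were Lacc1 for Mdm2 (Pearson r = 0.749), H2-K1 for Ccng1 (0.736), Ly6e for Bax (0.696) and Sgce for Sesn1 (0.671). The next were Apobec3 and Parp14 for Mdm2, Rnf213 and Nampt for Ccng1, H2-D1 and Bst2 for Bax, and Igf1r and Tspan13 for Sesn1. The points share libraries, depth and groups, so these values are descriptions.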

How the data were processed

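The deposited files are 5 tables of raw counts (whole numbers, genes by libraries), for which the authors used featureCounts, HISAT2, Trim Galore and UMI-tools with build GRCm38, per the submitters' processing notes. Tool versions, annotation release and strand setting: not given in the sources used here. Bax and Sesn1 overlap other annotated genes in GENCODE vM21 and may share reads with them. All 70 count columns were mapped by title, and 0 were left over.

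CPM were computed from column totals. Each table was fitted on its own in edgeR 4.0.16 (R 4.3.3) with TMM factors, filterByExpr by group and a quasi-likelihood test of all groups together, and p-values were adjusted by Benjamini-Hochberg over all tested genes (call below 0.05). Genes tested numbered 7076 (postnatal), 5163 (BLZ-titled), 4953 (vehicle/UC2288), 5111 (adult Jung) and 5512 (adult Littman), of which 7, 6, 5, 4 and 5 were members. The 95% intervals of fold changes are from the fit. Pooled ratios of counts are scaled by column totals and have exact binomial intervals that cover counting error only. A group at 0 was set to 3 counts over the group. Alternatives were DESeq2 1.42.0, voom in limma 3.58.1, other size factors, no filter, sex by Xist, the contrast's groups alone, a replicate block and leaving out each library.

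On simulated counts, 200 genes drawn at random from the tested ones were changed 4-fold. The test recovered 88.5% in the vehicle Cre comparison (6 false calls) and 98% in the postnatal Littman comparison (11 false calls). It recovered 90% in BLZ-titled Littman, 93% in adult Littman and 96% in adult Jung. These rates do not cover smaller changes or members below the low-count filter. Of 113 replicate pairs 0 were identical or within sampling noise. The members, gene lists and comparisons were chosen with earlier results of these data known. Named genes were all members, Cdkn1a, Cx3cr1, Trp53 and Mdm4, up to 6 called genes per pathway list, and the 3 genes most like each member with at least 20 CPM in every table. Some genes of these lists are not reported here. Promoter windows are from RefSeq. Zmat3, Trp53inp1 and Pmaip1 windows are not shown.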

Additional observations from a re-analysis of the deposited data

Results flagged for a closer look

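In groups of 4 or 5 libraries, 55 pairs of a member and a group with a mean of at least 10 counts were examined for a library far from the others by Dixon's test, which chance alone passes in about 1 of 20 groups. It picked out 3. Mdm2 was at 100.9 CPM in postnatal Jung oil replicate 2, against 67.5 to 74.5 CPM in the other 4 libraries. Bax was at 63.8 CPM in postnatal Jung TAM replicate 1, against 32.0 to 37.3 CPM in the other 3. Sesn1 was at 192.7 CPM in BLZ-titled Jung TAM replicate 3, against 101 to 117 CPM in the other 3. None of the 3 lies in a Littman group.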

How the results depend on the processing

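Over 1530 refitted log2 fold changes of members, 1492 kept their side of the threshold, 26 lost a call and 12 gained one. Direction was compared only where the main or the refitted value was called, and there 0 reversed. Vehicle Cre: the count of called members was 5, 3 with a replicate block and 3 to 4 when a library was left out. Vehicle TAM against oil: 3, against 5 without the low-count filter, 5 with DESeq2 and 2 to 4 without a library. Postnatal Littman: 1, against 2 with a replicate block, 0 with the contrast's groups alone (where Bbc3 was not testable) and 1 to 3 without a library. Cre under UC2288: 1, against 0 with a replicate block, 0 with the contrast's groups alone and 0 to 2 without a library. BLZ-titled Littman: 0, against 1 without the filter. The cause of these shifts was not tested. The other 11 comparisons had 0 calls in each alternative run, DESeq2 and limma-voom included.

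The replicate block used the numbers in the titles, which pair no libraries by label. Deviations of same-numbered libraries correlated at -0.359 to 0.344, and in no comparison were all pairs above 0.1. It left 2 calls in postnatal Littman, 3 in the vehicle Cre comparison, 3 in vehicle TAM against oil and 0 elsewhere. Depth limits Bbc3, Trp53inp1 and Phlda3, which the filter kept out of the vehicle fits, and Pmaip1 and Eda2r in all.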
